A study of Mus musculus with 6 samples.

Results

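The endoplasmic reticulum (ER) chaperones described here are the products of 10 genes: Hspa5, Hsp90b1, Pdia3, Pdia4, Pdia6, Calr, Canx, Dnajb9, Dnajc3 and Herpud1. Their probes were found through the RefSeq accession that the array files give for each probe, and every probe was kept apart. This gave 12 probes for the 10 genes, of 55681 probes that represent 19752 named genes. Each of the 12 cleared background on every array in either dye, and all belong to the 30071 probes tested. The comparison asks how liver transcripts differ between mice that overexpress Fra-1 in hepatocytes and wild-type mice. Fra-1, encoded by Fosl1, is a subunit of the AP-1 transcription factor.

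The tested animals, Fra-1hep mice on the C57BL/6J background, carry hepatocyte-restricted overexpression of Fra-1 and were untreated. The comparison animals were C57BL/6J wild-type mice. Both genotypes were 26 to 28 weeks old, and the wild-type livers came from 5 chow-fed mice whose RNA was pooled. On 5 two-colour Agilent arrays, Cy5-labelled RNA of 1 Fra-1hep mouse was set against the Cy3-labelled wild-type pool. A sixth array compared a Fra-1hep pool, here labelled with Cy3, with the same wild-type pool in Cy5. The number of mice in the Fra-1hep pool, the sex of the mice, the diet of the Fra-1hep mice and the promoter behind the overexpression are not given in the sources used here. The wild-type pool is 1 sample, so the data hold no spread between wild-type animals.

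Between 48.5 and 58.9% of probes cleared background in Fra-1hep RNA and at most 50.7% in wild-type RNA, with 0 saturated spots. The single Fosl1 probe cleared background on 0 of 6 arrays with either RNA, so the overexpressed gene does not check the labels. The arrays of mice 2 and 3 differed by 1.14 times the noise between replicate spots, against 1.68 to 2.32 times for the 9 other pairs of mice, and were averaged and counted as 1 sample. Hence n = 4 Fra-1hep samples in every SE and SD below. The labels do not say whether the 5 mice were littermates or were processed together. All 12 hepatocyte markers cleared background in RNA of both genotypes.

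The ER is where secreted and membrane proteins are folded, and hepatocytes, which secrete most plasma proteins, rely heavily on it. Hspa5 (BiP) and Hsp90b1 (GRP94) bind unfolded chains, calnexin (Canx) and calreticulin (Calr) hold chains that carry sugar trees, and protein disulfide isomerases form and rearrange disulfide bonds. When unfolded proteins accumulate, the sensors IRE1, PERK and ATF6 start the unfolded protein response, which raises transcription of these chaperones through ER stress elements in their promoters. Dnajb9 is a target of the IRE1 and XBP1 arm, and Herpud1 and Dnajc3 are also induced in ER stress.

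The promoters are shown because these elements are the known common control of the family. The elements were not used to choose the genes, but a high share of matches among them was likely beforehand. RefSeq promoters (GRCm38.p6) from 250 bases before to 50 after the transcript start were matched for all 10 genes. The ER stress element ERSE, written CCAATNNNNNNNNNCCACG and searched on both strands, occurred in 6 of the 10 promoters, against 0.119% of all 32851 promoters in the same table. The second form, ERSE-II (ATTGG and CCACG separated by 1 base), occurred in the Herpud1 promoter and in 0.0365% of all promoters. The unfolded protein response element core TGACGTGG (0.676% of all promoters) and the cAMP response element TGACGTCA (1.79%) were not found in the 10 windows. The AP-1 motif TGACTCA, held by 5.20% of all promoters, matched once, in Hspa5, where it reads TGAGTCA on the strand of the gene. No matches overlapped one another. Each stretch runs 5′ to 3′ on the strand of the gene, with the fixed letters of each match in capitals and 10 bases on either side, and all lie upstream of the start.
Hspa5 (chr2:34771898-34772053, plus strand; AP-1 motif, then ERSE): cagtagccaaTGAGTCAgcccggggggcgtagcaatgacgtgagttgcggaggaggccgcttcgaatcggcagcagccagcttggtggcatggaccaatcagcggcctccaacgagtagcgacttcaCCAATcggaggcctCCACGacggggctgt
Hsp90b1 (chr10:86705523-86705666, minus strand; an ERSE in each orientation): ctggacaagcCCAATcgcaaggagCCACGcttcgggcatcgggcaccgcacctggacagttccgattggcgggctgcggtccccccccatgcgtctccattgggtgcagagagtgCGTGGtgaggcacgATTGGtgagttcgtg
Pdia6 (chr12:17266481-17266519, plus strand; ERSE): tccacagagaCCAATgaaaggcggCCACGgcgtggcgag
Calr (chr8:84847065-84847103, minus strand; ERSE, reversed): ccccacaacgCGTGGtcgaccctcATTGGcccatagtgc
Canx (chr11:50325790-50325828, minus strand; ERSE): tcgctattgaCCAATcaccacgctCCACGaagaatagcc
Dnajc3 (chr14:118937817-118937855, plus strand; ERSE): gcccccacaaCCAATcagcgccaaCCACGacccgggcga
Herpud1 (chr8:94386367-94386397, plus strand; ERSE-II): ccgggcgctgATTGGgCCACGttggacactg
The windows of Pdia3, Pdia4 and Dnajb9 held none of the letters searched. A match describes the letters only, and binding was not measured.

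**Figure D1:**
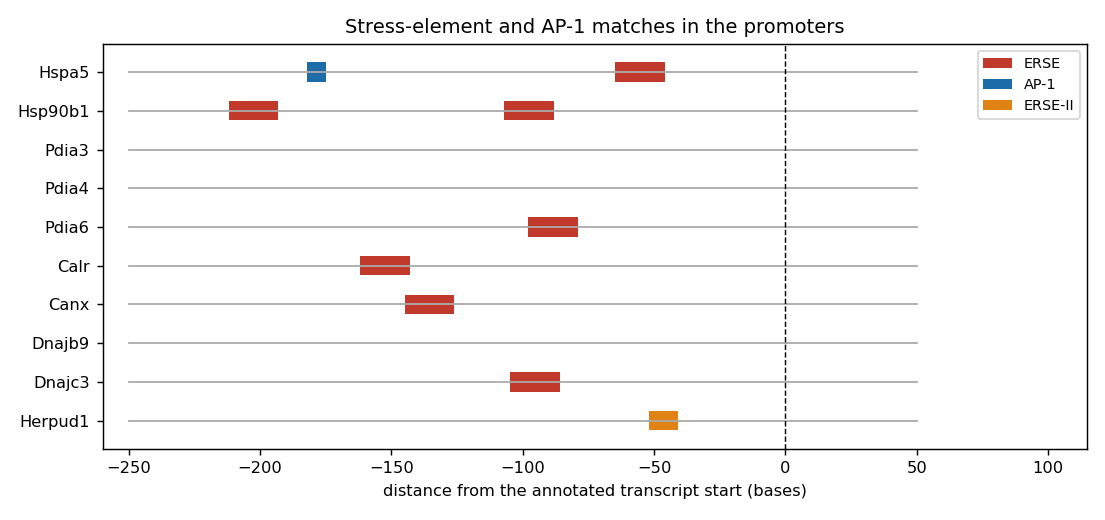
Matches of the ER stress elements (ERSE, ERSE-II) and of the AP-1 motif in the promoters of the 10 ER chaperone genes, as distance from the annotated transcript start in bases (x axis; dashed line at the start). The ERSE of Hspa5 begins at position -65, and Hsp90b1 holds 2 matches, which begin at positions -212 and -107.

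Changes of the ER chaperones in Fra-1hep liver were small and ran in both directions. Pdia6, Calr and Pdia4 fell by 0.26 to 0.41 on the log2 scale, which is at most 1.33-fold, and Dnajb9 rose 1.34-fold, while Hspa5, Hsp90b1, Pdia3, Canx, Dnajc3 and Herpud1 did not pass the test. By probe, 4 of 12 were lower, 1 was higher and 7 did not pass, against 11.6% of all probes tested that were called in either direction, 6.04% lower and 5.51% higher. By gene, at the brightest probe, 3 of 10 were lower and 1 was higher, against 16.0% of 13937 named genes called in either direction, 8.23% lower and 7.81% higher. The test was limma on the log2 ratio of Fra-1hep over wild type with a term for dye, and an adjusted p (Benjamini-Hochberg over all probes) under 0.05 counts as called. All 12 fitted ratios lay within 1.5-fold of no change and 8 within 1.2-fold. The median absolute log2 ratio of the 10 genes, at their brightest probes, was 0.20, against 0.09 for all probes tested, dim ones included. Whether it differs from that of genes of like brightness was not tested. Every lower call ended when arrays were centred on their median instead of normalised by loess, or when mouse 4 was left out (up to 0.0803 for Pdia4), and every call of either direction ended with the processed signals of the scanner software.

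The median log2 ratio of the 10 genes was -0.15, against 0.01 for all probes tested. The median over the genes was below 0 on each array, between -0.22 in mouse 5 and -0.08 in mouse 1, and -0.12 on the dye-swapped array. On each mouse array 1 to 4 of the 10 genes were higher than wild type. Of the 12 probes, 7 were among the 3008 brightest tested. With median centring the median of the 10 genes was 0.00, that of all probes tested was 0.08 and that of the 3008 brightest probes was 0.18. With loess all probes tested stood at 0.01 and the 3008 brightest at 0.03. Set against those brightest probes, the genes stood at -0.18 with loess and also at -0.18 with median centring. The part of brightness in the shift was not tested.

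**Figure D2:**
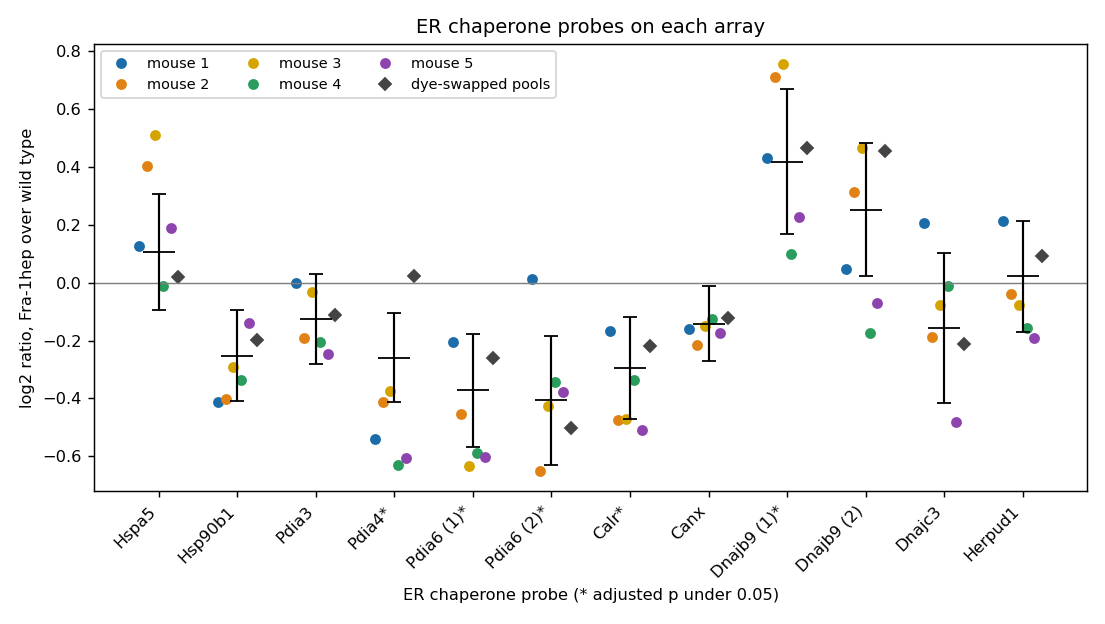
Log2 ratio of Fra-1hep over wild type (y axis) for each ER chaperone probe on the 5 mouse arrays (circles) and the dye-swapped array of pools (diamonds); black bars are the fitted ratio with its 95% confidence interval. For genes with 2 probes, (1) is the brighter. The bars of Pdia4, Pdia6 and Calr lie below 0 and that of the brighter Dnajb9 probe above 0, and on the dye-swapped array Pdia4 was at 0.02.

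Among the disulfide isomerase members only Pdia6 had 2 probes, and it fell on both. The 2 probes read the same RNA samples and are not independent of each other. The brighter probe (A_55_P2053491) gave log2 ratios of -0.20, -0.45, -0.63, -0.59 and -0.60 in mice 1 to 5 and -0.26 on the dye-swapped array. Its normalised signal was 15608 to 21491 in Fra-1hep, against 22919 to 24998 in wild type, without overlap. The fitted log2 ratio was -0.37 (SE 0.09, 95% confidence interval -0.57 to -0.18, n = 4, limma adjusted p = 0.0272). Mouse 1 lay closest to wild type. The dimmer probe (A_51_P297968) gave 0.01, -0.65, -0.43, -0.34 and -0.38 in mice 1 to 5 and -0.50 on the dye-swapped array, with a fitted ratio of -0.41 (SE 0.10, n = 4, limma adjusted p = 0.0318). Without mouse 4 or 5 both probes were just over the threshold, with adjusted p values from 0.0501 to 0.0602 in limma.

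Pdia4, a disulfide isomerase with several thioredoxin domains that binds BiP, was lower in all 5 mice, with log2 ratios of -0.54, -0.41, -0.38, -0.63 and -0.61. The dye-swapped array showed no such difference (0.02). Its Fra-1hep signals in mice 1 to 5 were 1565, 1574, 1517, 1296 and 1274, against wild-type signals of 2274, 2094, 1968, 2008 and 1939. On the dye-swapped array the signals were 1936 in Fra-1hep and 1906 in wild type. The fit, which weights that array as much as all mouse arrays together, gave -0.26 (SE 0.07, 95% confidence interval -0.41 to -0.11, n = 4, limma adjusted p = 0.0423) with a dye term of -0.28. The ratio over the mouse arrays alone, with mice 2 and 3 counted as 1 sample, was -0.54. The call ended without mouse 1, 2, 4 or 5 (limma adjusted p from 0.0518 to 0.0803). A dye effect and a difference between the single mice and the Fra-1hep pool cannot be told apart here.

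Pdia3 (ERp57), the isomerase that works with calnexin and calreticulin on glycoproteins, did not pass. Its log2 ratios were 0.00, -0.19, -0.03, -0.20 and -0.25 in mice 1 to 5 and -0.11 on the dye-swapped array. The fitted ratio was -0.13 with a 95% confidence interval of -0.28 to 0.03 (limma adjusted p = 0.293), and it was 0.03 with median centring.

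Of the lectin chaperones, Calr fell and Canx did not pass. Calr, the soluble lectin, had log2 ratios of -0.17, -0.47, -0.47, -0.34 and -0.51 in mice 1 to 5 and -0.22 on the dye-swapped array. Its signal was 10769 to 13562 in Fra-1hep, against 14849 to 15936 in wild type, again without overlap. Pdia6 and Calr were the 2 member probes of 12 whose channels did not overlap, against 10.8% of all probes tested (5.74% with Fra-1hep below, 5.05% with it above). The fitted ratio of Calr was -0.30 (SE 0.08, 95% confidence interval -0.47 to -0.12, n = 4, limma adjusted p = 0.0444). Canx, its membrane-bound relative, varied least between samples (SD 0.03, at percentile 1.14 of the SDs of all probes tested), with ratios of -0.21 to -0.12 on all 6 arrays. Its fitted ratio was -0.14 (95% confidence interval -0.27 to -0.01, limma adjusted p = 0.163), and 0.01 with median centring. Leaving out mouse 4 or mouse 5 took Calr over the threshold (adjusted p = 0.0713 and 0.0708 in limma).

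Hspa5 and Hsp90b1, the main ATP-driven chaperones of the ER, had fitted ratios of opposite sign, and neither passed. Hspa5 had log2 ratios of 0.13, 0.40, 0.51, -0.01 and 0.19 in mice 1 to 5 and 0.02 on the dye-swapped array. The 2 highest values came from mice 2 and 3, which count as 1 sample. Its signal was 19633 to 25143 in Fra-1hep, against 17666 to 21413 in wild type, with overlap. The fitted ratio was 0.10 with a 95% confidence interval of -0.10 to 0.30 (limma adjusted p = 0.513, and 0.110 to 0.607 over 17 alternatives), with an upper bound of 1.24-fold.

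Hsp90b1 was lower on all 6 arrays, with log2 ratios of -0.41, -0.40, -0.29, -0.33 and -0.14 in mice 1 to 5 and -0.20 on the dye-swapped array. Its signals were 13919 to 17884 in Fra-1hep and 16976 to 19915 in wild type, with overlap between arrays. The fitted ratio was -0.25 (SE 0.07, 95% confidence interval -0.41 to -0.09, n = 4, limma adjusted p = 0.0521), just over the threshold. It passed in 6 of 17 alternatives, among them the fit with 5 separate mouse arrays (adjusted p = 0.0318) and that without mouse 5 (0.0319), while its ratio was -0.09 with median centring.

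**Figure D3:**
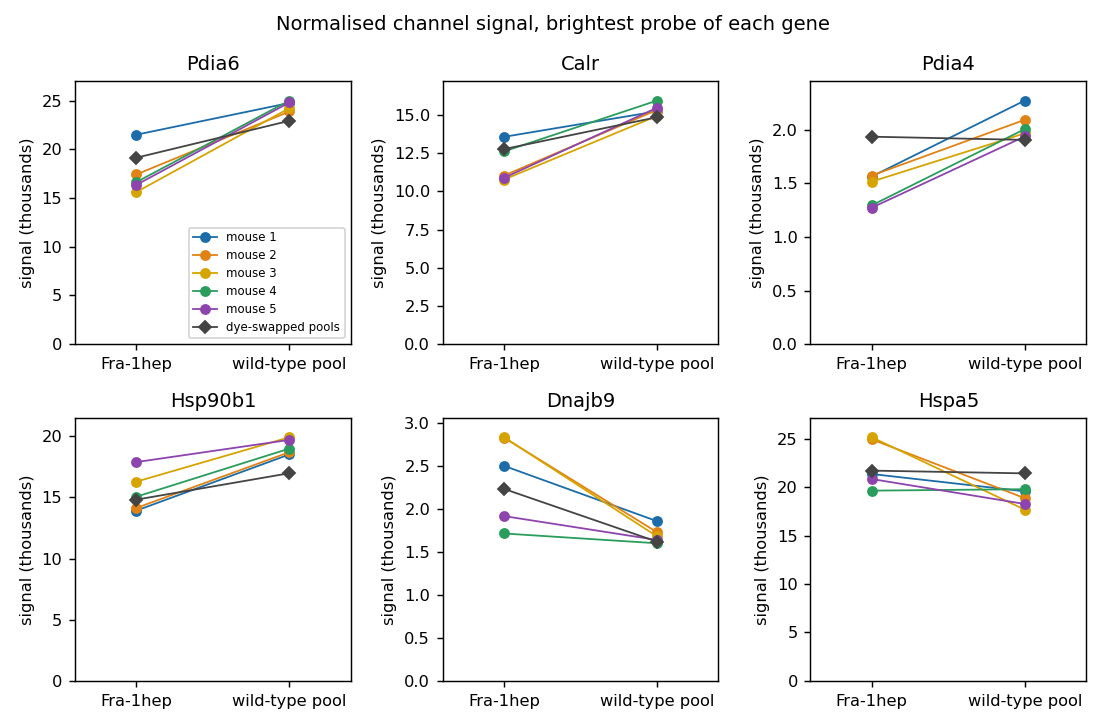
Normalised signal (y axis, from 0) of the Fra-1hep channel and the wild-type channel on the same array, joined by a line, for the brightest probe of 6 ER chaperone genes. Pdia6 and Calr signals do not overlap between channels, and for Pdia4 the dye-swapped array is flat (1936 in Fra-1hep and 1906 in wild type).

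Of the J proteins, which hand substrates to BiP and drive its ATPase cycle, Dnajb9 (ERdj4) was the member that rose. The brighter probe (A_51_P198835) gave log2 ratios of 0.43, 0.71, 0.75, 0.10 and 0.23 in mice 1 to 5 and 0.46 on the dye-swapped array. Mice 2 and 3 were highest and mouse 4 lowest. Its Fra-1hep signals in mice 1 to 5 were 2505, 2833, 2838, 1717 and 1920, against wild-type signals of 1860, 1731, 1683, 1603 and 1641. The fitted ratio was 0.42 (SE 0.11, 95% confidence interval 0.17 to 0.67, n = 4, limma adjusted p = 0.0451), and it missed the threshold when mouse 1 (adjusted p = 0.0784) or mouse 5 (0.0561) was left out. The dimmer probe (A_66_P133450) was higher on 4 of 6 arrays and did not pass, with a fitted ratio of 0.25 (95% confidence interval 0.02 to 0.48, adjusted p = 0.160). With mice 2 and 3 counted as 1 sample, its mouse arrays averaged 0.05, against 0.46 on the dye-swapped array.

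Dnajc3 (p58IPK), a J protein that also inhibits the kinase PERK, spread most between samples of the members (SD 0.29), with log2 ratios of 0.21, -0.19, -0.08, -0.01 and -0.48 in mice 1 to 5 and -0.21 on the dye-swapped array. Its fitted ratio was -0.16 (95% confidence interval -0.42 to 0.10, limma adjusted p = 0.440). Herpud1, a membrane protein of the complex that passes misfolded proteins to the proteasome, had ratios of 0.21, -0.04, -0.08, -0.16 and -0.19 in mice 1 to 5 and 0.09 on the dye-swapped array. The fitted ratio of Herpud1 was 0.02 (95% confidence interval -0.17 to 0.21, adjusted p = 0.906). Mouse 1 was the highest of the mice for Dnajc3 and Herpud1.

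The arrays lay on 3 slides and were scanned on 1 day. Only 1 slide held both dye orientations, with mice 3 and 4 and the dye-swapped array. Within that slide the ratios were -0.44 for both Pdia6 probes, -0.31 for Calr, -0.24 for Pdia4 and 0.45 for the brighter Dnajb9 probe. The fit over all arrays uses the same dye-swapped array at the same weight, and mice 3 and 4 as well. Its nearness to these ratios is thus partly built in and cannot show whether slide matters. A fit with slide as a random block, which took mice 2 and 3 as separate samples, called 5 member probes lower and 1 higher, as many as the fit with 5 separate mouse arrays and no block. The estimated correlation within slides was -0.01. Mice 2 and 3, whose arrays were nearly alike, lay on different slides, so this value cannot show whether slide matters either.

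Liver is a mixture of cells, and in bulk RNA fewer cells of a type and less RNA per cell cannot be told apart. All 10 neutrophil markers tested rose, with summed signals of 13051 to 60688 in Fra-1hep, against 3494 to 3943 in wild type. All 9 macrophage and Kupffer cell markers tested fell (37893 to 50826 in Fra-1hep, 63984 to 74186 in wild type), as did 6 of 8 endothelial and 4 of 7 T and NK cell markers. Of 12 hepatocyte markers 3 rose and 2 fell, of 7 cholangiocyte markers 2 rose, and of 8 stellate cell markers 1 rose and 1 fell. Of all named genes, 7.81% were higher and 8.23% lower. Pancreatic acinar cells and plasma cells are rich in ER. Of 16 acinar markers 9, including Prss1, Cpb1 and Pnlip, were not well above background on any array, the list summed to 3753 to 4533 in Fra-1hep and 4011 to 4513 in wild type, and 0 of 6 tested were called by limma (2 at an unadjusted p under 0.05). Of 7 plasma and B cell markers tested 2 fell, and 5 had an unadjusted p under 0.05 in limma. Their log2 ratios ran from -0.72 to 0.74, with a median of -0.17. The list summed to 3465 to 5783 in Fra-1hep and 4443 to 4955 in wild type. The part of these cell types in the chaperone values was not tested.

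The called regulators of the unfolded protein response were all higher. Of 19 genes of sensors and transcription factors, 4 rose, 0 fell (limma) and 15 did not pass, with a median log2 ratio of 0.07, and 5 had an unadjusted p under 0.05. Of all named genes 7.81% were higher. Limma called 0 of the 19 higher with processed signals (where the calls of Eif2ak3, Wfs1, Creb3l2 and Ern1 all ended), 2 without mouse 1 and 8 on the mouse arrays alone. Eif2ak3, which encodes PERK, rose 1.34-fold (log2 0.42, SE 0.09, limma adjusted p = 0.0167), with ratios of 0.38 to 0.84 in the mice and 0.24 on the dye-swapped array. Wfs1, the ER membrane protein wolframin, rose 1.39-fold (0.48, SE 0.10), and Creb3l2, an ER-anchored bZIP factor, rose 1.31-fold (0.39, SE 0.10), though not without mouse 1. The rise of Ern1, which encodes IRE1 alpha, was 1.16-fold (0.21, SE 0.06, adjusted p = 0.0475) and passed in 5 of 17 alternatives, none of which left out a mouse. Atf6 (-0.09, adjusted p = 0.556), Xbp1 (-0.14, adjusted p = 0.487), Atf4 (0.17, adjusted p = 0.401) and Ddit3 (0.02, adjusted p = 0.914) did not pass.

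Of 40 other folding factors of the ER tested, 1 rose and 2 fell, against 16.0% of named genes called in either direction. The median log2 ratio of these factors was -0.04, and 13 had an unadjusted p under 0.05. On the mouse arrays alone 5 were higher and 10 lower, without the dye term 4 and 8, and with median centring 5 and 0. Dnajc1, an ER membrane J protein, rose 1.44-fold (log2 0.53, SE 0.06, limma adjusted p = 0.00113) and passed in all 17 alternatives. The isomerases Txndc5 (-0.28, SE 0.07, limma adjusted p = 0.0318) and Tmx3 (-0.26, SE 0.07, adjusted p = 0.0453) fell. Their calls ended with median centring, with processed signals, with the authors' deposited values and without mouse 4 or 5. That of Tmx3 also ended without mouse 1 or 3. Hyou1 (-0.06), the stress-induced co-chaperone Sdf2l1 (-0.07) and Manf (0.21) had adjusted p values from 0.286 to 0.726. P4hb, the prototype disulfide isomerase, was at -0.21 (adjusted p = 0.113). Creld2, with an ERSE in its promoter window, was at 0.32 (limma adjusted p = 0.159, unadjusted p = 0.0352).

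ER-associated degradation had 1 called gene of 21, against 16.0% of all named genes. Derl3, a derlin that retrotranslocates misfolded proteins, was 2.25-fold lower (log2 -1.17, SE 0.30, limma adjusted p = 0.0422). Mouse 1 was at 0.05 and the other mice between -1.04 and -1.80, with the dye-swapped array at -1.17. That call ended without mouse 4 or 5, with median centring, with processed signals and with an intensity trend and robust variance (adjusted p up to 0.255). With median centring 4 other genes of the 21 were called higher instead, and 2 were on the mouse arrays alone. In all, 4 of the 21 had an unadjusted p under 0.05. Sel1l (-0.05), Edem1 (0.00) and Syvn1 (0.29, limma adjusted p = 0.122, unadjusted p = 0.0226) did not pass.

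Targets of ATF4 and the PERK arm, a pathway also switched on by lack of amino acids, had 2 of 27 genes higher and 1 lower. The shares of all named genes were 7.81% higher and 8.23% lower. The list had a median of 0.04, and 12 of its genes had an unadjusted p under 0.05. With median centring 4 were higher and 1 lower, on the mouse arrays alone 2 and 5, and with processed signals Asns alone was called. Asns, asparagine synthetase, was 42.9-fold higher (log2 5.42, SE 0.14, limma adjusted p = 6.98e-07), and Eif4ebp1, a repressor of translation, was 1.32-fold higher (0.40, SE 0.07). Atf3, a stress-induced bZIP factor, was 1.43-fold lower (-0.51, SE 0.09). Trib3 (-0.17, adjusted p = 0.462) and Chac1 (0.04, adjusted p = 0.920), like Ddit3 known to be induced through ATF4, did not pass.

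Genes of the translocon, signal peptidase and oligosaccharyl transferase bring chains into the ER and modify them there. Of 34 such genes limma called 0, against 16.0% of all named genes, and 8 had an unadjusted p under 0.05. With median centring 5 were higher, on the mouse arrays alone 4 were higher and 5 lower, without the dye term 3 and 1, and without mouse 1 there were 2 lower. Transport from ER to Golgi had 3 higher and 3 lower of 24, against 7.81% and 8.23% of all named genes. With processed signals limma called 0 of the 24 in either direction, and with loess 10 had an unadjusted p under 0.05. The COPI regulator Arfgap3 (log2 0.56, SE 0.12), the COPII cargo adaptor Sec24d (0.38, SE 0.10) and the Golgi tether Golgb1 (0.22, SE 0.06) rose, while the SNARE Bet1 (-0.51, SE 0.07), the coatomer subunit Copa (-0.24, SE 0.06) and the cargo receptor Tmed2 (-0.21, SE 0.06) fell. Arfgap3 and Bet1 passed in 15 of 17 alternatives. Leaving out mouse 1 or 5 ended the call of Sec24d, mouse 4 or 5 that of Copa, any mouse but 2 that of Golgb1 and any mouse that of Tmed2. The calls of Sec24d, Golgb1, Copa and Tmed2 also ended without background subtraction, and those of Copa and Tmed2 with median centring. Outside the ER, limma called 0 of 20 cytosolic chaperones (3 at an unadjusted p under 0.05), while 3 were higher and 2 lower on the mouse arrays alone. Of 10 mitochondrial chaperones and proteases 1 rose and 1 fell, against 7.81% and 8.23% of all named genes. The protease Lonp1 was 1.57-fold higher (0.65, SE 0.12). The HSP90 relative Trap1 fell by 0.26 on the log2 scale (SE 0.06) and did not pass without mouse 1 or 4. Both calls ended with processed signals, and that of Trap1 also with median centring and without background subtraction.

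**Figure D4:**
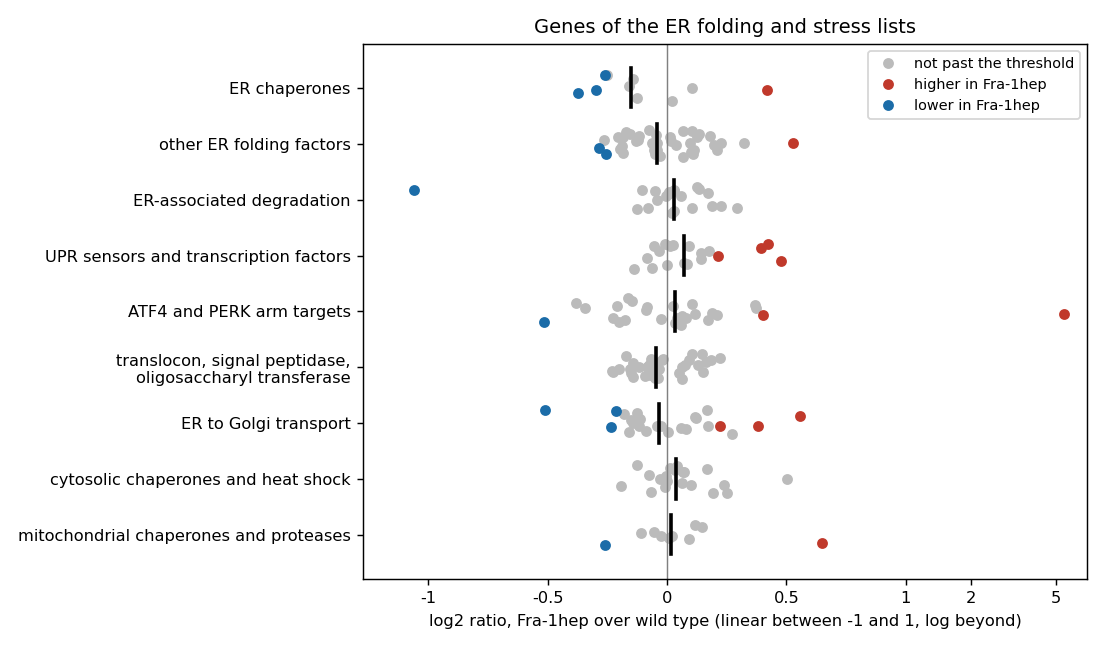
Fitted log2 ratio of Fra-1hep over wild type (x axis) for each tested gene of 9 lists, at its brightest probe, on an axis that is linear between -1 and 1 and logarithmic beyond; red is higher, blue lower and grey not past the threshold, and black bars are list medians. The ER chaperones have a median of -0.15, the sensors and transcription factors of 0.07, and Asns stands alone at 5.42.

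Beyond the chaperones, 13 tested genes carried an ERSE in the same promoter window. Of these, Pan2 rose (log2 0.23, limma adjusted p = 0.0496), Derl3 fell and 11 did not pass, and their median was -0.04. With the chaperones included, 1 of 19 tested genes with an ERSE was higher and 3 were lower. Of 11118 tested genes without an ERSE, 7.64% were higher and 8.06% lower. Of the 6 chaperone genes with an ERSE, Pdia6 and Calr fell and Hspa5, Hsp90b1, Canx and Dnajc3 did not pass. Among the chaperone genes without one in the window, Pdia4 fell and Dnajb9 rose.

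The gene whose ratios lay nearest to those of Hspa5 over the 6 arrays, by root mean square difference among 13936 named genes, was Mettl1, a tRNA methyltransferase (0.037). Ctps, a CTP synthase (0.059), and Kdm4a, a histone demethylase (0.072), came next. By this measure, which also counts a constant offset between genes, no other chaperone was near. Dnajb9, the closest of the 9 other members, differed by 0.276 (rank 4578), and Pdia6, the farthest, by 0.729 (rank 13086). For Hspa5 and Dnajb9 alike, mice 2 and 3 were the highest of the mice and mouse 4 the lowest. Whether genes vary together apart from such an offset was not tested.

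**Figure D5:**
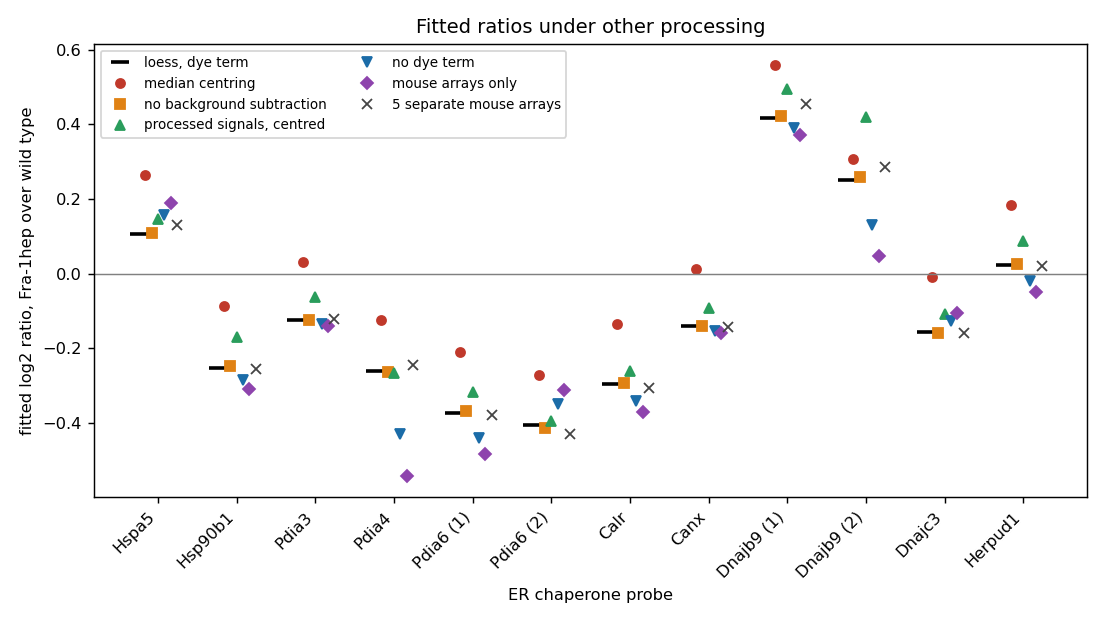
Fitted log2 ratio of Fra-1hep over wild type (y axis) for each ER chaperone probe under 7 ways of processing. Median centring (red circles) sits above loess (black bars) for each probe, and the Pdia6 and Calr probes stay below 0 and the Dnajb9 probes above 0 throughout.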

How the data were processed

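Labelled liver RNA was hybridised to 6 arrays, each with 62976 spots (100 ng RNA, integrity score above 7.8, per the labels' protocols). The authors extracted images with Agilent Feature Extraction (version 10.7, from the submitters' processing notes; 10.7.3.1 in the headers). Each deposited file holds median spot and background signals as intensity, without normalization, and processed signals with their log10 ratio, per the file headers. Flags for spots above background, listed as other values, were deposited with them. A deposited table of the whole series gives the same ratios as log2 values; its dye-swapped column correlated at -0.999 with that array's scanner ratio, so it was turned. Its columns have medians of -0.18 to 0.06 and are not centred. The labels, which were followed, give 5 single mice and an array of pools, where the design text counts 6 mice.

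Median signals were corrected with normexp (offset 50) and normalised by loess within arrays in limma 3.58.1 under R 4.3.3, with outlier spots left out. The offset shrinks the ratios of dim probes. Channel signals are loess-normalised, scaled between arrays by average intensity, and open to dye bias. Probes were named through GRCm38.p6 RefSeq accessions (26056 of 55681 had 1 symbol). Testing required a signal well above background in Fra-1hep on 3 or more of the 5 mouse arrays, or in wild type on 3 or more of all 6, and 39 probes with an outlier spot were dropped. lmFit and eBayes fitted genotype and dye with 3 residual and 5.16 prior degrees of freedom, so the dye-swapped array adds no spread. Genes in lists were taken at their brightest probe. The code was tested on simulated data.

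Named genes were the members, up to 5 called genes with the largest change per list, and the 3 nearest to Hspa5; Tmed2 and ERSE genes were named after their values were seen. Other listed genes with values are textbook regulators, also named after seeing them. The members, lists, tests and the averaging of mice 2 and 3 were chosen with earlier results of these data known. P-values measure the spread between these samples only.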

Additional observations from a re-analysis of the deposited data

Results flagged for a closer look

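One value stood apart from the rest of its group among the 12 ER chaperone probes. For the brighter Pdia6 probe, mouse 1 was at -0.20 while the other 3 samples lay close together, and the gap took up 0.857 of the range of the 4 samples. Chance gives about 1 such value in 20 groups. Here 12 groups, 1 per probe, were searched, so 1 such value can arise by chance. Without mouse 1 the fitted log2 ratio of Pdia6 was -0.42 (limma adjusted p = 0.00714).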

How the results depend on the processing

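Over 17 alternatives 162 values of the 12 ER chaperone ratios kept both their direction and their side of the threshold, 29 lost a call, 6 gained one and 5 turned round. The turned values were all of genes that did not pass in either fit: with median centring, Pdia3 was at 0.032 and Canx at 0.013, and Herpud1 was at -0.020 without a dye term, at -0.049 on mouse arrays only and between -0.021 and 0.046 with 1 mouse left out (lowest without mouse 1). With median centring 0 member probes were lower (2 at an unadjusted p under 0.05), and of all changed probes 74.3% were higher (2920 higher, 1011 lower), against 59.9% with processed signals (924 higher, 619 lower) and 47.7% with loess (1658 higher, 1816 lower). Without background subtraction 2 member probes were lower and 0 higher (2 at an unadjusted p under 0.05). With processed signals, 1543 of all probes and 0 member probes in either direction were called (3 lower and 1 higher at an unadjusted p under 0.05), and the authors' deposited values gave 1555 and again 0 (3 and 1). Without the dye term 5895 probes were called, and 7567 on mouse arrays only. Leaving out each mouse in turn gave 2904 to 3289 probes in all, 0 to 1 member probes higher and 0 to 4 lower: 0 were higher without mouse 1 or 5, 0 were lower without mouse 4 and 1 without mouse 5. The counts of the other lists moved by over 1.5 times in 77 values and by less in 195, with up to 10 of the other folding factors lower. The cause of these shifts was not tested. Each ratio pairs the channels of 1 array. Single wild-type mice could not be paired with Fra-1hep mice because the wild-type RNA was pooled. Few arrays, 1 wild-type pool and 1 array of exchanged dyes limit changes of this size.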
